A study of Mus musculus with 8 samples.

Results

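Serpins are a family of protease inhibitors, and 39 genes whose symbol begins with Serpin, Serpina7 left aside, had a probe set of their own among the 18193 genes measured in whole mouse liver. The members were set by symbol, and the family was chosen with earlier results of these data known. Each member was read from 1 probe set, the one with the highest mean over the 8 arrays. Livers came from 3 control mice, labelled wild type, and 5 POMCMfn2KO mice, all 6 weeks old, of a mixed C57Bl/6J, FVB/N and 129 background and fed chow freely. The name POMCMfn2KO stands for loss of the mitochondrial fusion gene Mfn2 from the neurons that make POMC, the precursor of the hormone alpha-MSH. The liver is therefore not the tissue targeted, and the labels do not say which driver line removed the gene, nor the sex of the mice, the time of collection or any batch. The study asked how stress in the hypothalamus bears on glucose production by the liver. Values are log2 expression levels, so a difference of 1 is a doubling, and they compare a gene between arrays but not 1 gene with another.

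A serpin presents an exposed loop as bait, and the protease that cuts it is trapped in a covalent complex with the collapsed inhibitor. The family is sorted into lettered clades. Clade A holds mostly secreted proteins, many of them made by hepatocytes and released into plasma. Clade B serpins stay inside cells, where they guard against proteases that leak from granules and lysosomes. Single members of the other clades restrain clotting, fibrinolysis and complement, and a few family members bind hormones or fold collagen instead of inhibiting a protease.

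Of the 39 genes, 13 belonged to clade A, 18 to clade B, 2 each to clades F and I, and 1 each to clades C, D, G and H. The gene identifiers of all 39 carried the same symbols in RefSeq, which lists 69 Serpin genes. The 29 others, without Serpina7, had no probe set of a single symbol and were not analysed here on their own. The level that a gene had to reach for a test was 5.80, the median over the probe sets, and 21 serpins reached it. These were 8 of clade A, 7 of clade B and all 6 of clades C, D, F, G and H. Serpinb6b, with a mean of 5.92 over the 8 arrays, lay nearest above that level and Serpini1, with 5.32, nearest below.

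In the POMCMfn2KO livers 1 serpin rose and 6 fell. Serpina4-ps1, a pseudogene related to kallistatin, rose 4.01-fold. Serpina3n, an acute phase inhibitor of the antichymotrypsin group, fell 1.99-fold, and Serpinb1a, an intracellular inhibitor of neutrophil elastase, fell from 6.85 to 5.64, below the level used for dim genes, so that the size of its fall may be bounded by background. Serpina10, Serpinf2, Serpinb9 and Serpinb8 fell by smaller amounts. The plasma inhibitors Serpina1b and Serpina1c, both antitrypsins, and Serpinc1, antithrombin, did not pass. In probe sets annotated to 1 gene each they differed by 0.01, 0.02 and 0.04. A probe set shared by Serpina1e, Serpina1c and Serpina1b rose by 0.53.

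These calls are 7 of the 21 tested serpins, or 33.3%, against 18.0% of all 11986 genes tested (limma, adjusted p under 0.05). For genes that fell, the share was 28.6% of the serpins against 10.9% of all genes, and for genes that rose it was 4.76% against 7.02%. The 6 that fell include Serpinb1a, which reached the level for a test only through its controls. The median difference over the 21 serpins was -0.10 and over all genes -0.02, and 14 of the 21 differences were negative. The groups did not overlap for 10 serpins, of which 9 were lower in the POMCMfn2KO livers and 1 was higher. That is 47.6% of the serpins, against 28.5% of all genes, 16.5% being lower and 12.0% higher. The count of serpins that fell depended on single arrays: 3, 2 and 3 fell without Control 1, 2 and 3, and 3 fell without POMCMfn2KO 2. It was 3 without POMCMfn2KO 2 and 3 together. Counts over all genes also dropped without POMCMfn2KO 2 and 3, and they moved as single arrays were left out. Their values are given in the closing section, and the counts of the gene lists below stand beside them too.

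**Figure D1:**
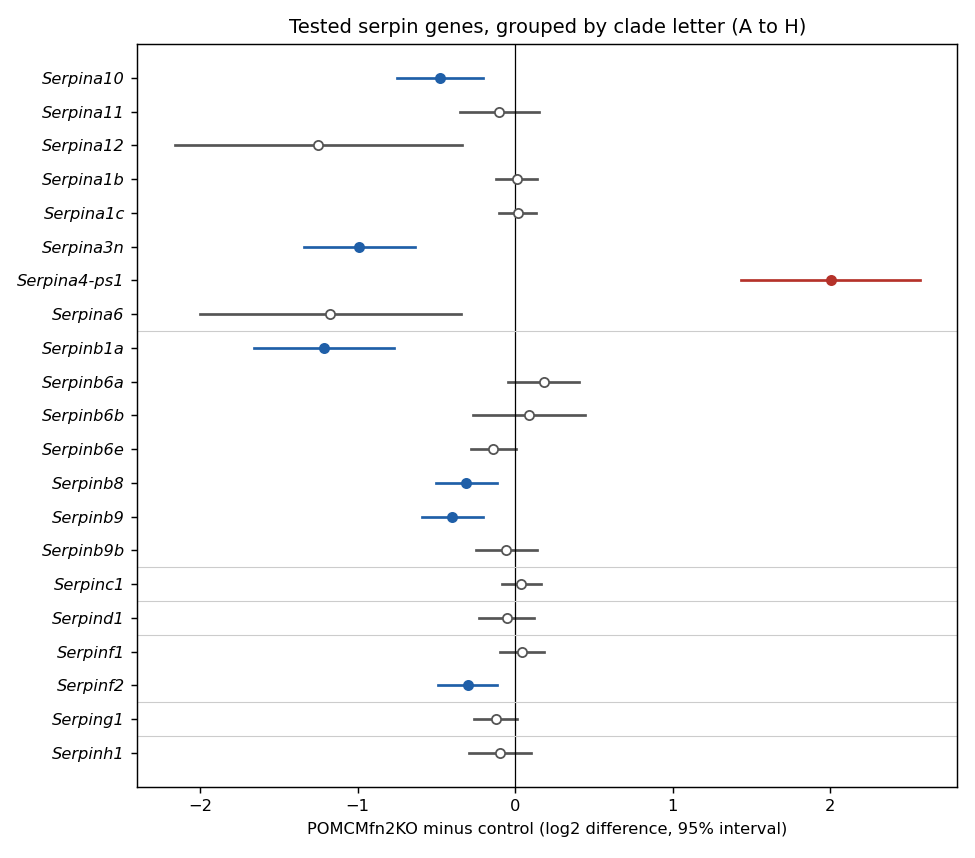
Difference between POMCMfn2KO and control livers on the log2 scale for the 21 tested serpins, grouped by clade, with the 95% confidence interval from limma; filled points passed and open points did not. Serpina4-ps1 stands at 2.00, and the 6 genes that fell lie between -1.21 and -0.30.

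Properties of the arrays touch all of these values. The 3 control arrays were closer to each other than the POMCMfn2KO arrays were, with pairwise correlations over the genes tested of 0.997 to 0.998 and 0.979 to 0.995. The SD was larger among POMCMfn2KO than control livers for 80.0% of the genes tested and for 19 of the 21 serpins. POMCMfn2KO 2 and 3 were high in markers of pancreatic acinar cells: the mean level of 15 acinar markers was 9.91 and 10.10 there, 5.94 to 6.22 in the other POMCMfn2KO arrays and 5.94 to 5.99 in the controls. The mean level of 11 hepatocyte markers was 13.71 to 13.72 in controls and 13.69 to 13.95 in POMCMfn2KO livers. Hepatocyte markers were thus high in every sample, but they do not show whether other tissue was present as well. In whole tissue, fewer cells of a type and less RNA per cell cannot be told apart.

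**Figure D2:**
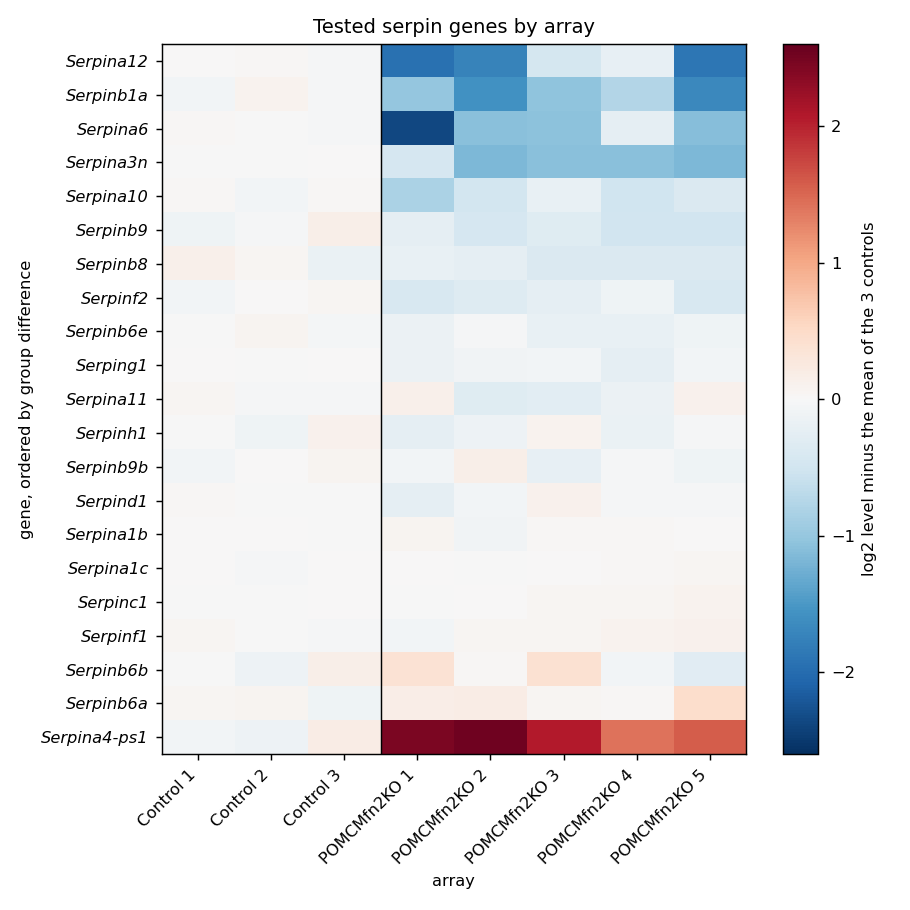
Each tested serpin in each array, as the log2 level minus the mean of the 3 control arrays, with genes in rows ordered by their group difference and arrays in columns. The Serpina4-ps1 row is above its control mean in all 5 POMCMfn2KO arrays, and the rows of Serpina6 and Serpina12 differ in depth from mouse to mouse.

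Clade A gave the only rise among the serpins, and the POMCMfn2KO mice varied in it by a median SD of 0.27, against 0.02 in controls. Serpina4-ps1 read 8.08, 8.01 and 8.34 in Control 1 to 3 and 10.60, 10.66, 10.20, 9.55 and 9.73 in POMCMfn2KO 1 to 5. Every POMCMfn2KO liver lay above every control, with the higher values in mice 1 and 2 and the lower in mice 4 and 5. The means were 8.14 ± 0.17 (SD, n = 3) and 10.15 ± 0.50 (SD, n = 5), a difference of 2.00 with a 95% interval of 1.44 to 2.57 (limma, adjusted p = 0.00161). The gene has 2 further probe sets, which differed by 2.25 and 2.17, so all 3 gave a rise of similar size. The difference was between 1.88 and 2.15 when any 1 array was left out.

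Serpina3n is the member of the mouse Serpina3 cluster with the best known role in inflammation, and it inhibits granzyme B and leukocyte proteases. It read 11.78, 11.78 and 11.79 in the controls and 11.34, 10.61, 10.69, 10.70 and 10.62 in the POMCMfn2KO livers. All POMCMfn2KO livers lay below the controls, and mouse 1 stood apart from the other 4, nearer to the controls. The means were 11.78 ± 0.01 (SD, n = 3) and 10.79 ± 0.31 (SD, n = 5), so the level fell by 0.99 on the log2 scale (SE 0.16, adjusted p = 0.00410). The relatives Serpina3a and Serpina3i were too dim to test, with values of 5.00 to 5.23 and of 4.59 to 4.83 over the 8 arrays.

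The start regions of Serpina3n and Serpina3i are shown because the pair lies in 1 gene cluster and 1 member fell from a high signal while the other stayed near background. Each line holds the 250 bases before the RefSeq start (GRCm38.p6), read 5′ to 3′ on the strand of the gene, with capitals for bases that have no match in the alignment of the pair. Serpina3n lies at chr12:104406458-104406707 (+) and Serpina3i at chr12:104262872-104263121 (+).
Serpina3n: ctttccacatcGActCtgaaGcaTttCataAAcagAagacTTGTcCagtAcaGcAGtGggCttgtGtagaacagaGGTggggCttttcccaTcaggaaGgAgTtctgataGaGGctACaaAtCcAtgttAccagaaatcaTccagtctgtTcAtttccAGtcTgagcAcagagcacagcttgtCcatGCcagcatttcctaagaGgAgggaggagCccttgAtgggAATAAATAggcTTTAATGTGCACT
Serpina3i: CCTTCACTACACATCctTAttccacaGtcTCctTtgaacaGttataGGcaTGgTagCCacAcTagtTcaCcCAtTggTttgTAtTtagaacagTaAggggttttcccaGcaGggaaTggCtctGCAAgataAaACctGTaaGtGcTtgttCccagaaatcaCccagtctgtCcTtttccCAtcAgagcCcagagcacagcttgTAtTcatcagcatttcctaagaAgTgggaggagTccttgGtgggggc
Of 218 aligned bases, 177 matched, or 70.8% of the window, and 73 bases of each sequence were unmatched.

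Serpina10 encodes the protein Z-dependent inhibitor of clotting factor X in its active form. It read 12.41, 12.30 and 12.41 in the controls and 11.56, 11.88, 12.18, 11.85 and 11.99 in the POMCMfn2KO livers. The groups did not overlap, but mouse 3 came close to the lowest control. The level fell by 0.48 on the log2 scale, or 1.39-fold (limma, adjusted p = 0.0276). The call was lost without Control 1, 2 or 3 (adjusted p = 0.104, 0.0763 and 0.103) and without POMCMfn2KO 2 (0.0569).

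Serpina6, corticosteroid-binding globulin, carries glucocorticoids in plasma and inhibits no protease. It read 11.20, 11.17 and 11.16 in the controls and 8.81, 10.09, 10.12, 10.94 and 10.06 in the POMCMfn2KO livers. All 5 lay below the controls, mouse 4 only slightly and mouse 1 by far the most. The difference of -1.17 had a 95% interval of -2.0 to -0.34 and did not pass (limma, adjusted p = 0.0554). It passed without POMCMfn2KO 1, at -0.87 (adjusted p = 0.0171), and without POMCMfn2KO 4 (0.0120).

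Serpina12, vaspin, is a secreted inhibitor of a tissue kallikrein and is known as a protein linked to insulin sensitivity. It read 11.45, 11.46 and 11.41 in the controls and 9.49, 9.70, 10.98, 11.23 and 9.56 in the POMCMfn2KO livers. Mice 1, 2 and 5 were far below the controls, while mice 3 and 4 were little below them. The difference was -1.25, with a 95% interval of -2.16 to -0.34, and did not pass (limma, adjusted p = 0.0617). It passed without POMCMfn2KO 3 (adjusted p = 0.0477) and without POMCMfn2KO 4 (0.0130). A second, dim probe set of the gene differed by -0.26.

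**Figure D3:**
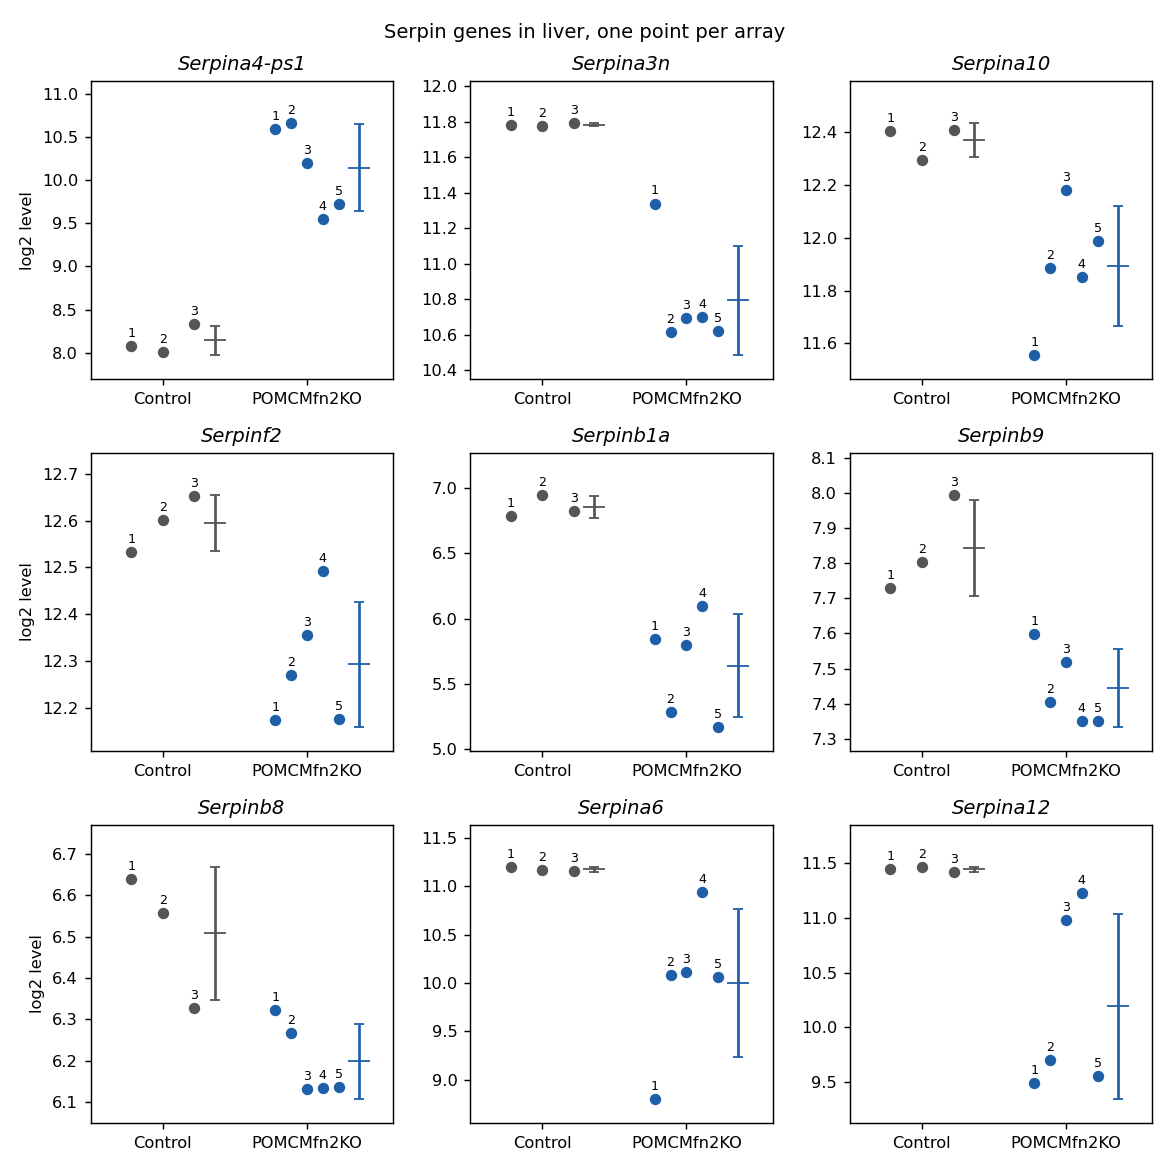
Log2 level of selected serpins in each array, controls and POMCMfn2KO livers side by side, with points numbered by mouse and bars for the mean ± SD (n = 3 and n = 5); the vertical axis has its own range in each panel. For Serpina3n, mouse 1 lies at 11.34 and the other POMCMfn2KO livers at 10.61 to 10.70.

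The antitrypsins Serpina1b and Serpina1c, the main plasma inhibitors of neutrophil elastase, gave a different picture. Serpina1b had a mean of 14.95 in controls and 14.96 in POMCMfn2KO livers, a difference of 0.01 (limma, adjusted p = 0.921), and its second probe set differed by 0.03. Serpina1c had means of 15.10 and 15.12, a difference of 0.02 (adjusted p = 0.872). Both genes read close to the highest value on any array, 15.40, and whether the array compresses changes at that level was not tested. Serpina11, a secreted clade A serpin, differed by -0.10 (adjusted p = 0.587), with controls at 11.34 to 11.42 inside the POMCMfn2KO range of 11.07 to 11.50.

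Other probe sets of the antitrypsin group are shared between relatives and were tested in a fit over all 45037 probe sets, of which 7.33% passed and 3.22% rose. The probe set annotated to Serpina1e, Serpina1c and Serpina1b read 12.57, 12.63 and 12.53 in the controls and 12.92, 13.37, 13.23, 13.05 and 13.00 in the POMCMfn2KO livers. It rose by 0.53, with a 95% interval of 0.31 to 0.76 (limma, adjusted p = 0.0128), and the groups did not overlap. The probe set annotated to Serpina1d and Serpina1a differed by 0.18, at 14.58 to 14.63 in controls and 14.71 to 14.82 in POMCMfn2KO livers (adjusted p = 0.0965). These probe sets cannot assign a signal to 1 of the genes they name. Both probe sets annotated only to Serpina1b have the suffix _x_at, which marks probes that may bind other transcripts. They too may not read 1 gene only.

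**Figure D4:**
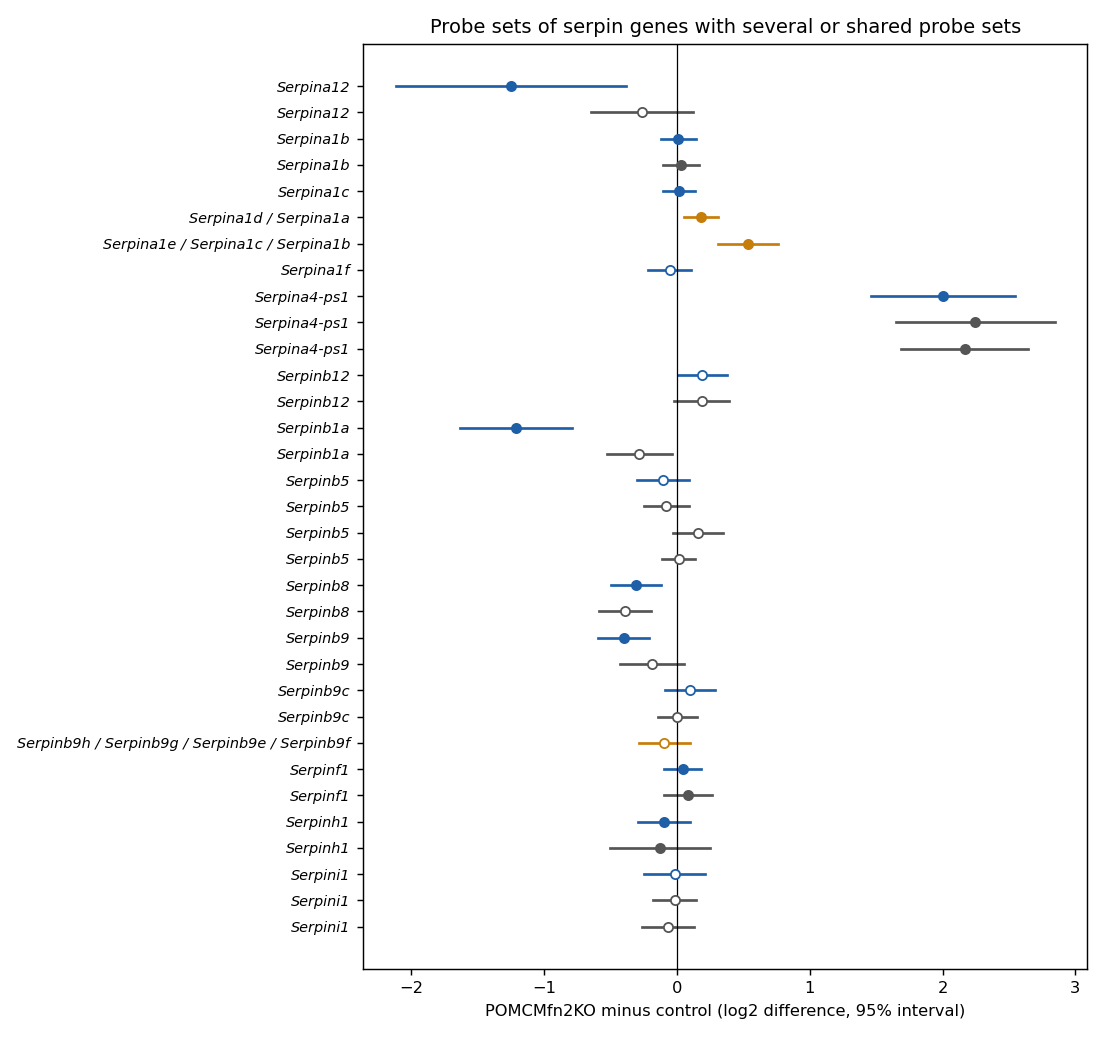
Difference between POMCMfn2KO and control livers for every probe set of the serpins that have more than 1 and of the antitrypsin genes, and for those shared by several symbols, with 95% confidence intervals; blue marks the probe set used for the gene, grey another of its probe sets and orange a shared one, and open symbols have a mean below 5.80. The shared probe set of Serpina1e, Serpina1c and Serpina1b lies at 0.53. Those annotated only to Serpina1b, which may bind relatives as well, lie at 0.01 and 0.03.

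The start regions of Serpina1b and Serpina1c are shown because they give the extent to which these copies resemble each other outside the transcript. The layout is as for the Serpina3 pair, from the same RefSeq build. Serpina1b lies at chr12:103738190-103738439 (-) and Serpina1c at chr12:103904951-103905200 (-).
Serpina1b: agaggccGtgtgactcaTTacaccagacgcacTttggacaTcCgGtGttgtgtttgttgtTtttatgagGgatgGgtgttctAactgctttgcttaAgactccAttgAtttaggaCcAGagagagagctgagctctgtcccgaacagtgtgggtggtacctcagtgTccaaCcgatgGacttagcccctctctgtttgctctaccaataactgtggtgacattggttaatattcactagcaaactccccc
Serpina1c: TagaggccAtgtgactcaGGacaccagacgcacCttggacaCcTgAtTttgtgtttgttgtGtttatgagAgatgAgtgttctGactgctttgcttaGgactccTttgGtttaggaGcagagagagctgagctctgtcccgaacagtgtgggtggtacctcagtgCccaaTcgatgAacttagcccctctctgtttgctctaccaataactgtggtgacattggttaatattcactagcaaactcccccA
Of 248 aligned bases, 229 matched, which is 91.6% of the window, and 21 bases of each sequence were unmatched.

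RefSeq start regions of 250 bases were at hand for 33 of the 39 serpins, each read from the first window listed for the gene, and for 4 of the 7 that changed, Serpina3n, Serpinb8, Serpinb9 and Serpinf2. Letter patterns were searched on both strands. The pattern TTCNNNGAA, the core bound by STAT factors, was found in 5 of the 33 and in 7.02% of 32851 RefSeq windows of the same length. GAANNTTC, a pair of heat shock units, was found in 2 and in 6.69% of all windows. TTGCNNAA, the C/EBP core, was found in 6 and in 9.56%, and CACGTG, an E box, in 0 and in 6.02%. None of these letter patterns was present in the windows of the 4 serpins that changed, which says nothing about binding elsewhere.

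The clade A genes lie in 1 cluster on chromosome 12, in the RefSeq order Serpina10, Serpina6, the antitrypsin copies, Serpina11, Serpina9, Serpina12, Serpina4-ps1, Serpina5 and the Serpina3 copies. Differences of neighbours had opposite signs in places. Serpina12, at -1.25, lies beside Serpina4-ps1, at 2.00. Serpina10 and Serpina6, at -0.48 and -1.17, lie together at the end of the cluster next to the antitrypsins. Serpina5, the protein C inhibitor, follows Serpina4-ps1 but was too dim to test, with values of 4.75 to 5.35.

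**Figure D5:**
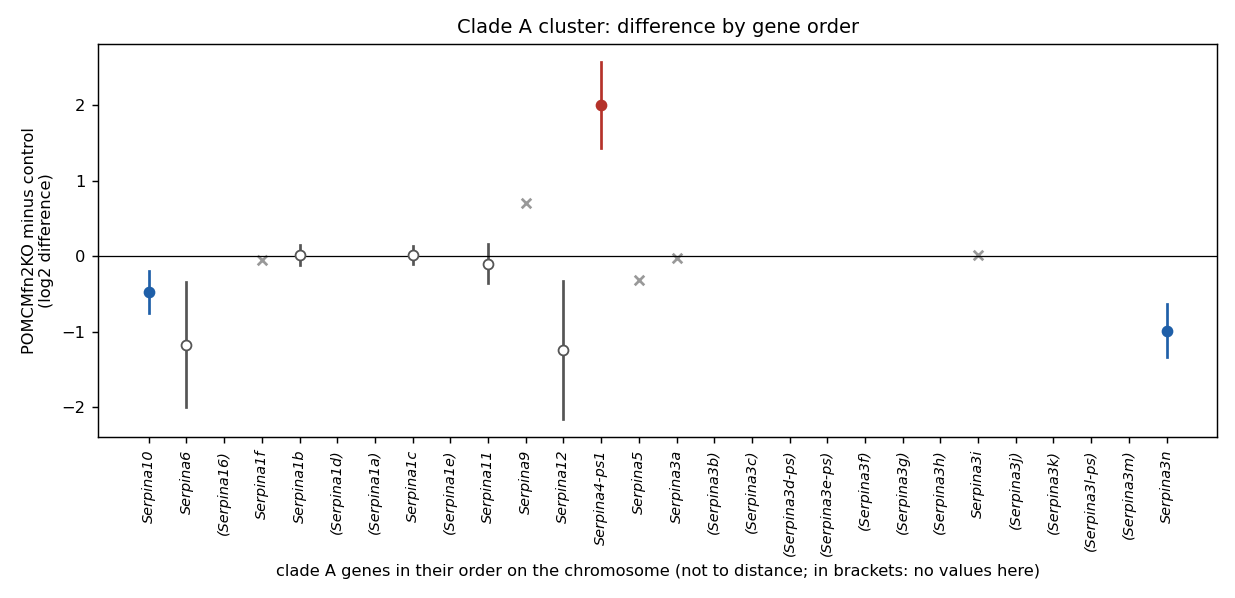
Difference between POMCMfn2KO and control livers on the log2 scale for the clade A serpins in their order along the chromosome, evenly spaced and not to genomic scale; filled points passed (red higher, blue lower), open points did not, crosses were too dim to test, and bars are 95% confidence intervals. Serpina4-ps1 lies at 2.00 between Serpina12, at -1.25, and Serpina5, which was too dim to test.

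In clade B, 3 of the 7 tested genes fell, against 10.9% of all genes, and none rose, and the median difference was -0.14. The calls of 2 of the 3, Serpinb8 and Serpinb9, were lost when single controls were left out. Serpinb1a read 6.79, 6.95 and 6.82 in the controls and 5.84, 5.29, 5.80, 6.10 and 5.17 in the POMCMfn2KO livers. All controls were higher, and the POMCMfn2KO mean of 5.64 ± 0.39 (SD, n = 5) was below the level of 5.80 used for dim genes. From a control mean of 6.85 ± 0.08 (SD, n = 3) it fell by 1.21 on the log2 scale (limma, adjusted p = 0.00476). A second probe set, dim in both groups, differed by -0.28.

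Serpinb9 inhibits granzyme B and protects cells from the granules of cytotoxic lymphocytes. It read 7.73, 7.80 and 8.0 in the controls and 7.60, 7.41, 7.52, 7.35 and 7.35 in the POMCMfn2KO livers. The groups did not overlap, and the level fell by 0.40 on the log2 scale (limma, adjusted p = 0.0150). The call was lost without Control 2 (limma, adjusted p = 0.0544), without Control 3 (0.0709) and without POMCMfn2KO 2 and 3 together (0.0726). A second, dim probe set of the gene differed by -0.19, and its groups overlapped.

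Serpinb8 is an intracellular serpin that inhibits furin. It read 6.64, 6.56 and 6.33 in the controls and 6.32, 6.27, 6.13, 6.13 and 6.14 in the POMCMfn2KO livers. Control 3 and POMCMfn2KO 1 nearly met, and the level fell by 0.31 on the log2 scale (limma, adjusted p = 0.0372). Of the serpin calls it was among those that depended most on single arrays. The adjusted p was 0.156 and 0.138 without Control 1 and 2, 0.0568, 0.0817, 0.0509 and 0.0635 without POMCMfn2KO 2, 3, 4 and 5, and 0.132 without POMCMfn2KO 2 and 3 together. A dimmer probe set of the gene fell by 0.39 in the fit over all probe sets (adjusted p = 0.0272), where the brighter one did not pass (0.0563).

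Clade B serpins are known from leukocytes, and markers of those cells were read beside them. The counts of markers stand against 7.02% of all genes tested that rose and 10.9% that fell. The mean level of 11 neutrophil markers, 4 of them dim, was 6.06 to 6.13 in controls and 5.66 to 5.81 in POMCMfn2KO livers. The median difference of the 7 tested was only -0.09, with 6 negative and 1 positive. Of these, S100a9 fell by 1.56 on the log2 scale and the others did not pass. The neutrophil gene S100a8 was too dim to test. The mean level of 11 lymphocyte markers, 7 of them dim, was 5.50 to 5.67 and 5.48 to 5.60, and none of the 4 tested passed. Kupffer cell and macrophage markers, 12 genes of which 1 rose and 1 fell, lay at 9.02 to 9.34 and 8.62 to 9.43; 4 fell without POMCMfn2KO 5, and 0 rose without Control 2, without Control 3 or without POMCMfn2KO 2 and 3 together. The mean level of 12 endothelial markers was 8.15 to 8.40 and 8.30 to 8.66, and 3 of the 10 tested rose. That count was 0 without Control 2, without Control 3 and without POMCMfn2KO 2 and 3 together, and 1 without POMCMfn2KO 2, 3 or 5. The mean level of 6 cholangiocyte markers, of which 3 were tested and none passed, was 5.29 to 5.48 and 5.29 to 5.46. The part of these cells in the clade B values was not tested.

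The other clade B members with a signal did not pass. Serpinb6a, an inhibitor of cathepsin G, differed by 0.18 (limma, adjusted p = 0.242). Its relatives Serpinb6b and Serpinb6e differed by 0.09 and -0.14, and Serpinb9b, a relative of Serpinb9, by -0.06. Probe sets of these close relatives can share transcripts, so their values may not be separate measurements.

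Among the plasma serpins outside clade A, Serpinf2 passed. It encodes alpha-2-antiplasmin, the main inhibitor of plasmin and so a brake on the removal of clots. It read 12.53, 12.60 and 12.65 in the controls and 12.17, 12.27, 12.35, 12.49 and 12.18 in the POMCMfn2KO livers. The highest POMCMfn2KO value, in mouse 4, lay just below the lowest control, and the level fell by 0.30 on the log2 scale (limma, adjusted p = 0.0375). The call was lost without Control 1, 2 or 3 (adjusted p = 0.0885, 0.122 and 0.136), without POMCMfn2KO 2, 3 or 5 (0.0752, 0.0614 and 0.0622) and without POMCMfn2KO 2 and 3 together (0.127). In the fit over all probe sets it was 0.0572.

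The inhibitors of thrombin were at similar levels in both groups. Serpinc1, antithrombin, read 14.31 to 14.34 in the controls and 14.31 to 14.41 in the POMCMfn2KO livers, a difference of 0.04 with a 95% interval of -0.09 to 0.16 (limma, adjusted p = 0.674). Serpind1, heparin cofactor II, differed by -0.05 (adjusted p = 0.680), with POMCMfn2KO 1 at 12.26 below the controls and POMCMfn2KO 3 at 12.59 above them. Serping1, the inhibitor of the first complement component and of plasma kallikrein, read 13.64 to 13.65 in the controls and 13.42 to 13.57 in the POMCMfn2KO livers. Its groups did not overlap, but the difference of -0.12, with an interval of -0.26 to 0.01, did not pass (adjusted p = 0.186).

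Members that inhibit no protease did not pass either. Serpinf1, pigment epithelium-derived factor, had means of 13.27 in controls and 13.32 in POMCMfn2KO livers (difference 0.04, limma, adjusted p = 0.681), and its second probe set differed by 0.08. Serpinh1, a collagen chaperone of the endoplasmic reticulum that is induced by heat shock, had means of 7.0 and 6.91 (difference -0.10, adjusted p = 0.490), and its second probe set differed by -0.13.

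The 18 dim serpins read between 3.23 and 5.73 over the 8 arrays and were not tested. They were Serpina1f, Serpina3a, Serpina3i, Serpina5 and Serpina9 of clade A, Serpinb1b, Serpinb2, Serpinb3a, Serpinb5, Serpinb6c, Serpinb7, Serpinb9c, Serpinb9d, Serpinb9g, Serpinb11 and Serpinb12 of clade B, and Serpini1 and Serpini2. Serpina9, known from germinal centre B cells, read 4.53, 4.67 and 4.42 in the controls and 4.38, 5.73, 5.65, 5.04 and 5.41 in the POMCMfn2KO livers, so that 4 of the 5 lay above the controls. Serpini2, a serpin of the exocrine pancreas, read 4.65 and 4.67 in POMCMfn2KO 2 and 3, the arrays high in acinar markers, and 4.07 to 4.23 in the other 6 arrays. A probe set shared by Serpinb9h, Serpinb9g, Serpinb9e and Serpinb9f was dim as well, with a mean of 4.47.

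The proteases that serpins inhibit were read in the same fit. Of 26 tested, 0 rose and 3 fell, against 7.02% and 10.9% of all genes, with a median difference of -0.02, the same as over all genes. Prtn3, a neutrophil protease that Serpinb1a also inhibits, fell by 0.47 on the log2 scale, Ctsb, a lysosomal cathepsin, by 0.44 and Tmprss6, which trims the iron sensor of hepatocytes, by 0.26. Hgfac, which activates hepatocyte growth factor, differed by -0.28 (limma, adjusted p = 0.0512). Of the 26, 1 fell without Control 1, without Control 3 and without POMCMfn2KO 2 and 3 together, and 5 fell without POMCMfn2KO 5. Other targets of the serpins that fell did not pass. F10, a target of Serpina10, differed by 0.16 and Plg, the target of Serpinf2, by -0.06. Elane, a target of Serpinb1a, differed by 0.09 and Furin, a target of Serpinb8, by 0.05. F11, another clotting factor on the list, differed by 0.35 (limma, adjusted p = 0.0588).

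Cofactors of serpins and the receptors that clear their complexes gave 0 that rose and 4 that fell of 16 tested, against 7.02% and 10.9% of all genes, with a median of -0.03. Lrp1, the main receptor for serpin and protease complexes, fell by 0.31 on the log2 scale (limma, adjusted p = 0.0473). Its call was lost in 12 of 20 alternatives. Among these were leaving out Control 1, 2 or 3 (limma, adjusted p = 0.129, 0.154 and 0.130) and testing dim genes too (0.0570). Vldlr, a related receptor, fell by 1.13. Asgr1, which clears plasma glycoproteins, fell by 0.33, and Gpc1, a heparan sulfate proteoglycan, fell by 1.53. Only 1 fell when any 1 control was left out or POMCMfn2KO 2 and 3 together, and 6 fell without POMCMfn2KO 1. Protein Z (Proz), the cofactor of the inhibitor encoded by Serpina10, differed by -0.08 (limma, adjusted p = 0.618).

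Of 27 protease inhibitors of other families tested, 3 rose and 5 fell, against 7.02% and 10.9% of all genes, with a median of 0.03. Wfdc2, a small secreted inhibitor, fell by 2.70 on the log2 scale, more than any serpin. Itih4, a plasma inhibitor chain, fell by 0.64 and Cstb, a cathepsin inhibitor, by 0.56, while Timp3, a metalloprotease inhibitor, rose by 0.51. Without Control 2 and without POMCMfn2KO 2 and 3 together 1 rose and 3 fell, without Control 1 there were 3 in each direction, and without POMCMfn2KO 1 there were 5.

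Serpina3n is a liver acute phase gene, and some other acute phase genes fell as well. Of 25 genes tested on an acute phase list, 0 rose and 12 fell, against 7.02% and 10.9% of all genes. The median difference was -0.39. Between 10 and 14 fell when any 1 array was left out, and 11 without POMCMfn2KO 2 and 3 together. Without POMCMfn2KO 4, 1 rose. The list also held genes that encode no acute phase plasma protein. Among them, Stat3, Socs3 and Steap4 are counted in the 12, and Il6ra and Il6st did not pass. Of the other genes, Hp, Hpx, Cp, Crp, Lbp, Hamp, Saa3, Fga, Fgb, Fgg and Il1rn did not pass, with differences from -0.44 to 0.22. Orm3, also in the 12, fell from 6.36 to 5.64, below the level used for dim genes, and its groups overlapped. Saa2 fell by 4.72 on the log2 scale, Saa1 fell by 3.66, Orm2 fell by 2.88 and Apcs fell by 1.48. Targets of heat shock factor 1, the regulator of Serpinh1 in heat shock, were higher instead: 11 of 16 rose and 1 fell, against the same shares, with a median of 0.45. Hspa1b rose by 2.18, Hsph1 by 1.72, Chordc1 by 1.20 and Dnajb1 by 0.68, while Serpinh1 differed by -0.10. Of the 16, 8 rose without any 1 control and 6 without POMCMfn2KO 2 and 3 together. The count of all genes that rose was lower without POMCMfn2KO 2 and 3 as well.

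Serpinh1 helps to fold collagens, which were read beside it. Of 20 collagens and collagen-folding enzymes tested, 1 rose and 2 fell, against 7.02% and 10.9% of all genes, with a median of 0.01. P4ha1, which hydroxylates collagen prolines, rose by 0.83 on the log2 scale, and Crtap, a partner in that step, and Col6a2 fell by 0.58 and 0.31. Col1a1 differed by -0.29 (limma, adjusted p = 0.0943). Without Control 1, without Control 3 and without POMCMfn2KO 2 and 3 together 0 fell, without Control 2 it was 1 and without POMCMfn2KO 5 it was 3, while 2 rose without POMCMfn2KO 4. Stellate cell and fibroblast markers, 12 genes of which none passed (1 rose without POMCMfn2KO 1 and 1 fell without POMCMfn2KO 5), lay at 8.47 to 8.64 in controls and 8.45 to 8.76 in POMCMfn2KO livers.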

How the data were processed

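RNA of 8 mouse livers was read on Affymetrix arrays. The authors deposited log2 expression values per probe set, made with RMA from affy per the submitters' processing notes (versions not given in the sources used here). Of 45101 probe sets, 34945 had 1 gene symbol. Each of 18193 genes was read from its brightest probe set, by the mean of all 8 arrays. Probe sets with the suffix _x_at or _s_at may bind more than the named transcript. Among the tested serpins these were the ones used for Serpina1b, Serpinb6e and Serpinh1 (_x_at) and Serpina10 (_s_at). Genes dimmer than 5.80, the middle value of the probe-set means without controls, were not tested, which left 11986.

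Genes were compared with limma 3.58.1 in R 4.3.3 (POMCMfn2KO minus control, no trend, not robust, 2-sided, Benjamini-Hochberg adjustment over all genes tested, threshold 0.05). "Rose" and "fell" are used only of genes that passed. A second fit covered every non-control probe set. The script was tested on simulated data. The labels call the arrays biological replicates. Arrays have no read depth, so their number limits the precision; array medians were 5.79 to 5.81.

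The members and lists were chosen with earlier results of these data known. Named were all members that passed, of the others the 10 with the highest mean and all Serpina1 and Serpina3 genes, and the 4 members of each list with the lowest p. The other tested and dim members, 4 targets of serpins that fell, F11, Proz, S100a8 and S100a9 were named beside that rule, after their values were seen. So were the acute phase genes beyond the 4. Alternatives covered the filter, choice of probe set, scaling, variance model, threshold, replicate number as a block and leaving out arrays; averaging the controls to 1 sample was added after seeing the data. Start regions came from RefSeq (GRCm38.p6) and were aligned with Biopython 1.88. No protein sequences were used here, so a planned comparison of them was not made.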

Additional observations from a re-analysis of the deposited data

Results flagged for a closer look

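Serpina3n in POMCMfn2KO 1, at 11.34, stood apart from the other 4 livers of its group: the gap to the nearest of them, 10.70, was 0.879 of the range of the group, above Dixon's 95% critical value for 5 samples. Chance flags about 1 in 20 groups, and the POMCMfn2KO groups of the 21 tested serpins were looked at. Without this liver the difference in Serpina3n was -1.13.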

How the results depend on the processing

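No serpin that passed reversed under any alternative in which it was tested. Serpinb1a and Serpinb8 were tested in 18 of the 20 alternatives. Both were too dim to test at a filter level of 7 and with the mean of all their probe sets. Serpina10, read only from an _s_at probe set, was tested in 19. The count of serpin genes that fell was 6, and of serpin genes that rose 1; 2 fell at a threshold of 0.01, 3 without POMCMfn2KO 2 and 3 together, and between 2 and 7 when 1 array was left out. With the controls averaged to 1 sample, which leaves the spread to the POMCMfn2KO arrays alone, limma called 0 serpins in either direction, against 1 higher and 4 lower at an unadjusted p under 0.05. The count of all genes that rose was 842: 1323 with array weights by group, 253 at 0.01, 239 without POMCMfn2KO 2 and 3, 8 with averaged controls and 286 to 1156 leaving out 1 array. The count of all genes that fell was 1310: 449 at 0.01, 401 without POMCMfn2KO 2 and 3, 23 with averaged controls and 496 to 1642 leaving out 1 array. Serpina3n, Serpina4-ps1 and Serpinb1a passed with any 1 array left out; with averaged controls their adjusted p was 0.256, 0.186 and 0.263. Serpina6 also passed at a filter level of 7 (adjusted p = 0.0495), and Serpina6 and Serpina12 with array weights (0.0124 and 0.0144). The labels number 3 mice of both groups alike. Deviations of same-numbered livers correlated at 0.04, 0.04 and -0.03, and those of other pairs at -0.08 to 0.05. These values show no pairing, but so few arrays cannot exclude one. The replicate block compares only POMCMfn2KO 1 to 3 with Control 1 to 3, because POMCMfn2KO 4 and 5 have no control of their number. With it 5 serpins fell and 1 rose, against 1176 and 715 of all genes. Under it Serpina10 (0.0584), Serpinb8 (0.0626) and Serpinb9 (0.0664) no longer passed. Serpina6 (0.0246) and Serpina12 (0.0357) passed under it, with POMCMfn2KO 4 and 5 out of the comparison. Where no reason is given, the cause was not tested. Array signal limits the dim genes and Serpinb1a.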
